A study of Mus with 4 samples.

Results

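This report describes 10 genes by which a cell detects viral or displaced nucleic acid and turns on interferon-β: the cytosolic RNA sensors Ddx58, Ifih1 and Dhx58, the nucleic acid sensor Zbp1, the endosomal receptor Tlr3, the adaptor Mavs, the transcription factors Irf3 and Irf7, the cytokine gene Ifnb1 and the receptor gene Ifnar1. They were taken by symbol, with every probe, from the deposited signal table, which carries 26893 gene symbols. The 10 genes were read by 22 probes, each with 1 spot per array. All 4 arrays gave a value for each of these probes.

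The cells were an immortalised murine podocyte line, differentiated for 10 to 14 days at 37 °C with interferon-γ withdrawn. In the OASIS group (2 samples) a lentivirus carried the active, N-terminal form of OASIS, the transcription factor encoded by Creb3l1. In the Venus group (2 samples), the control, the lentivirus carried the fluorescent protein Venus. Both groups were exposed to lentivirus for 24 h at a multiplicity of infection of 200 to 500 with 8 μg/mL polybrene and 10% FBS, and RNA was taken 48 h after the vector was added. No sample without lentivirus was analysed here, so every level below was measured in cells that had met a viral vector. The sources do not say whether the samples of a group were separate cultures. The p-values therefore measure only the spread between these samples, which may be technical. In RNA from a whole culture, a lower level in every cell cannot be told apart from fewer cells carrying the RNA.

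As background, RIG-I (Ddx58) and MDA5 (Ifih1) bind double-stranded or otherwise abnormal RNA in the cytosol and signal through MAVS on mitochondria, whereas TLR3 senses double-stranded RNA in endosomes. Both routes activate the kinases that phosphorylate IRF3 and IRF7, which enter the nucleus and transcribe Ifnb1. Secreted interferon-β binds its receptor, of which Ifnar1 encodes a chain, and the JAK-STAT pathway then induces a large set of genes. Many sensors and Irf7 belong to this induced set, so the circuit feeds back on itself, while Mavs and Irf3 are known for expression that changes little with interferon. Lentiviral particles deliver an RNA genome, and podocytes are among the kidney cells known to carry these receptors.

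On the arrays, 33938 to 34418 of 59305 spots were well above background and 0 were saturated. Arrays of a group correlated with Pearson's r of 0.997 (Venus) and 0.995 (OASIS) over the probes tested, and arrays of different groups with 0.973 to 0.978. The single Creb3l1 probe read 0.71 and 0.72 in Venus and 0.61 and 0.49 in OASIS (log2 level), so it gave no check of the introduced form. Of 13 podocyte markers, 9 were tested. Synpo, Podxl and Actn4 were well above background on all 4 arrays, whereas Ptpro and Tcf21 were not on any array and Nphs1 (nephrin) was on 1 array. The podocyte markers past the threshold were Wt1 (log2 fold change 4.62, by 1 of 2 probes), Cd2ap (1.09, by 1 of 3 probes) and Plce1 (-1.26, by 1 of 3 probes).

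Levels are given as log2 of the processed signal relative to the 75th percentile of the same array, so 0 is as bright as that percentile. Levels are compared between arrays for 1 probe and are not read as amounts of RNA between probes. Signals of different probes are combined in picking the brightest probe of a gene, in bounds and in summed marker levels. Changes are log2 fold changes of OASIS minus Venus with their standard error (SE) from limma. Adjusted p means Benjamini-Hochberg adjustment across the 31598 probes with a test. A probe counted as past the threshold if its fold was over 2 or under 0.5 and its adjusted p was also under 0.1. Of the 22 probes, 21 were tested and 20 were well above background on all 4 arrays. The remaining probe, the dimmer of 2 for Dhx58 (A_51_P363218), was not well above background on any array and had no test.

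In cells given OASIS, Irf7 fell 3.85-fold and 4.07-fold by its 2 probes, and Ifih1 and Zbp1 each fell by 1 of 2 probes. Ifnb1 was not well above background in OASIS. Its bound was a fall of at least 5.64-fold (log2 2.50) from the mean of Venus arrays that lay 1.13 apart (log2). With normexp, another background correction, that bound was 0.92 (log2). In all, 5 of the 21 probes tested (23.8%) were past the threshold and lower with OASIS, against 2.47% of all probes tested. No member probe (0) was past the threshold and higher, against 5.89% of all probes, and none had a fitted change above 0. Without the fold limit, 13 member probes were lower at an adjusted p under 0.1, against 19.7% of all probes. With the test kept to probes well above background on all 4 arrays, which leaves out Ifnb1, 5 of 20 member probes were past the threshold, against 2% of all probes in that fit. These were the same probes of Ifih1, Zbp1 and Irf7, with that of Dhx58. By the brightest probe of each gene, 3 of 10 genes fell (Ifih1, Irf7 and Ifnb1), against 1.85% of the 16318 genes tested. Of these, Ifnb1 was tested through its Venus signal alone. Ddx58, Dhx58, Tlr3, Mavs, Irf3 and Ifnar1 had no probe past the threshold.

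The direction of the member probes was uniform at the level of the fitted values. All 21 tested probes had a log2 fold change under 0, as did 57.5% of all probes tested. Both OASIS arrays lay below both Venus arrays for 19 of the 21 (90.5%), against 39.4% of all probes. The median log2 fold change was -0.74 over the member probes and -0.07 over all probes. By the brightest probe of each gene, these medians were -1.04 over the members and -0.06 over all genes.

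**Figure D1:**
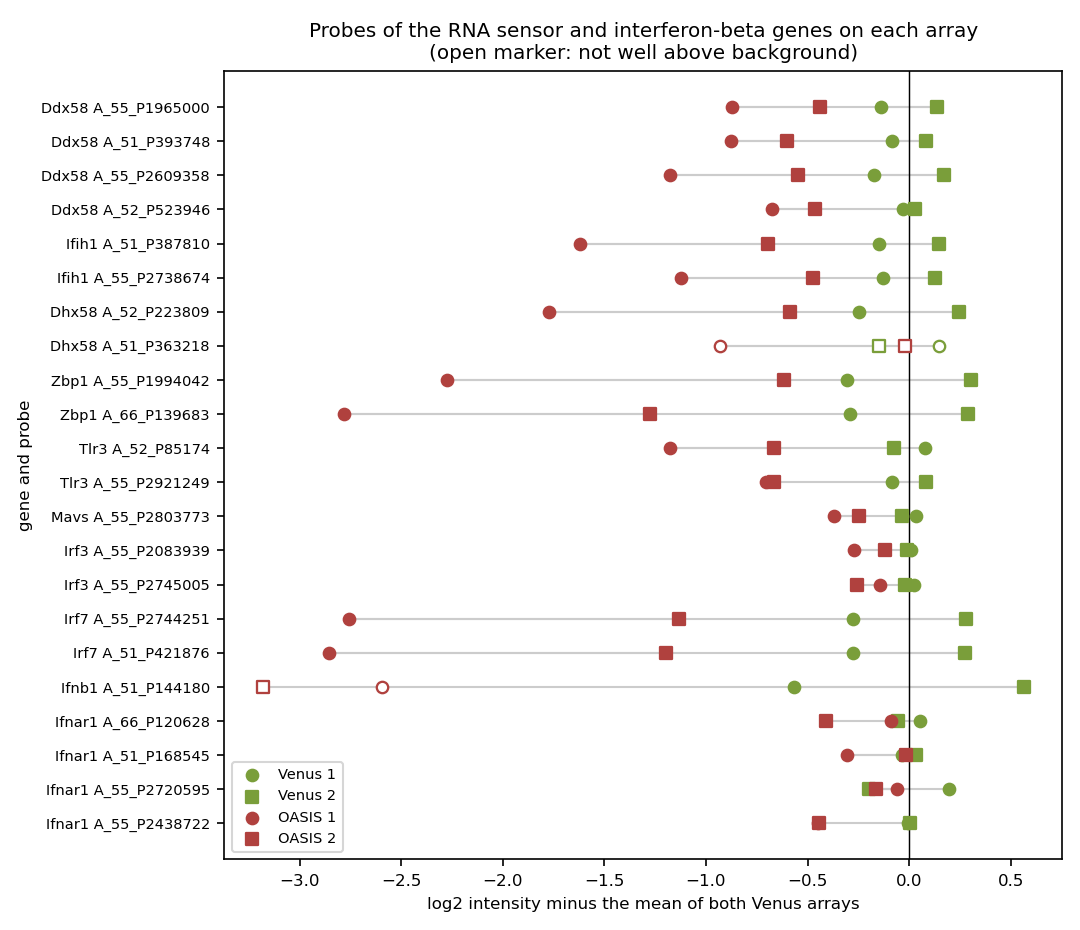
Level of each of the 22 probes on each of the 4 arrays, as log2 intensity minus the mean of both Venus arrays (x axis), by gene and probe (y axis). Green marks Venus and red OASIS, circles replicate 1 and squares replicate 2, and open markers spots not well above background. The red markers of Zbp1, Irf7 and Ifnb1 lie farthest to the left, and those of Mavs, Irf3 and Ifnar1 lie near 0.

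Ddx58 encodes RIG-I, a helicase that recognises short double-stranded RNA and uncapped 5′ ends. It lies on mouse chromosome 4, band qA5, and was read by 4 probes. The brightest, A_55_P1965000, read 3.58 and 3.86 in Venus and 2.85 and 3.28 in OASIS. Both OASIS arrays were lower than both Venus arrays, for this and for the other 3 probes. The change of the brightest probe was -0.66 (SE 0.20, adjusted p = 0.0738 in limma), 1.58-fold lower. Over the 4 probes the log2 fold change ran from -0.86 to -0.57, with adjusted p from 0.0289 to 0.0738, so each met the limit on p and none the limit on fold. Without the second OASIS array, A_55_P2609358 passed the threshold as well, at -1.18 (adjusted p = 0.0452 in limma) against -0.86 on 4 arrays.

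Ifih1 encodes MDA5, which binds long double-stranded RNA, and lies on chromosome 2, band qC1.3. Its brighter probe, A_51_P387810, read 0.91 and 1.21 in Venus and -0.56 and 0.37 in OASIS. The groups did not overlap, and the first OASIS array was the lowest. This was a fall of 2.23-fold (log2 fold change -1.16, SE 0.33, adjusted p = 0.0689 in limma), just past the limit on fold. The dimmer probe, A_55_P2738674, read -4.52 and -4.26 in Venus and -5.51 and -4.86 in OASIS, a change of -0.80 (SE 0.25, adjusted p = 0.0823) that did not reach the limit on fold. The call of the brighter probe was lost without the first OASIS array (-0.69), without the first Venus array (adjusted p = 0.15) and without the second Venus array (adjusted p = 0.217). Without the second OASIS array both probes were past the threshold, at -1.62 and -1.12.

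Dhx58 encodes LGP2, a helicase of the same family that lacks the signalling domains and modulates its relatives. It lies on chromosome 11, band qD. Its tested probe, A_52_P223809, read -1.85 and -1.36 in Venus and -3.38 and -2.19 in OASIS, so the groups did not overlap and the OASIS arrays stood apart from each other. The change was -1.18 (SE 0.43), past the limit on fold and not on p (adjusted p = 0.116 in limma). It was -0.58 without the first OASIS array and -1.77 without the second (adjusted p = 0.0379), where it was past the threshold. The fit kept to probes well above background on all 4 arrays also called it (adjusted p = 0.0938), as did the fit with an intensity trend in the variance (adjusted p = 0.0425).

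Zbp1 encodes a sensor of left-handed nucleic acid that can start necroptosis, and lies on chromosome 2, band qH3. Its probes are annotated to different transcript variants. The probe for variant 1, A_66_P139683, read -1.37 and -0.79 in Venus and -3.86 and -2.35 in OASIS. The first OASIS array was by far the lowest, and the second also lay under both Venus arrays. This was a fall of 4.08-fold (log2 fold change -2.03, SE 0.54, adjusted p = 0.0582 in limma). The brighter probe, for variant 2 (A_55_P1994042), read 1.83 and 2.44 in Venus and -0.13 and 1.52 in OASIS. Here the second OASIS array came close to the first Venus array, and the change of -1.44 (SE 0.59) did not pass (adjusted p = 0.141 in limma). The difference between the variants' changes was not tested.

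The values of both Zbp1 probes depended on which OASIS array was used. Without the first the changes were -1.27 for variant 1 and -0.62 for variant 2, and without the second OASIS array -2.78 and -2.27, the latter then past the threshold (adjusted p = 0.0357 in limma). The call for variant 1 was lost without the first Venus array (adjusted p = 0.116) and without the second (adjusted p = 0.183), while the change itself stayed at -2.32 and -1.74. The variant 2 probe was past the threshold with normexp background correction, at -1.40 (adjusted p = 0.0462), and with an intensity trend in the variance (adjusted p = 0.0527).

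Tlr3 encodes the endosomal receptor for double-stranded RNA and lies on chromosome 8, band qB1.1. Its brighter probe, A_52_P85174, read -2.49 and -2.64 in Venus and -3.74 and -3.22 in OASIS. The dimmer probe, A_55_P2921249, read -3.44 and -3.27 in Venus and -4.06 and -4.02 in OASIS. In both the groups were well apart, and in the dimmer probe the OASIS arrays nearly coincided. The changes were -0.92 (SE 0.20, adjusted p = 0.0374 in limma) and -0.69 (SE 0.11, adjusted p = 0.02), so both met the limit on p and neither the limit on fold. The brighter probe was past the threshold without the second OASIS array, at -1.17. Its local background was marked as not uniform on all 4 arrays.

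Mavs encodes the mitochondrial adaptor on which the cytosolic RNA sensors converge, and lies on chromosome 2, band qF1. Its probe, A_55_P2803773, read 3.13 and 3.07 in Venus and 2.73 and 2.85 in OASIS. The groups did not overlap, but the difference was small: -0.31 (SE 0.11, adjusted p = 0.103 in limma), or 1.24-fold lower. It ran from -0.37 to -0.25 when each array was left out in turn.

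Irf3 encodes the factor that is present before infection and is activated by phosphorylation, and lies on chromosome 7, band qB4. Its brighter probe, A_55_P2083939, read 3.60 and 3.58 in Venus and 3.32 and 3.47 in OASIS. Both probes changed by -0.20 (SE 0.11 for the brighter and 0.10 for the dimmer), with adjusted p = 0.248 and 0.224 in limma. Neither passed on fold or on p.

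Irf7 encodes the factor that interferon itself induces and that widens the response, and lies on chromosome 7, band qF5. Its brighter probe, A_55_P2744251, read 4.47 and 5.02 in Venus and 1.99 and 3.61 in OASIS. The dimmer probe, A_51_P421876, read 0.48 and 1.04 in Venus and -2.10 and -0.44 in OASIS. Both gave the same picture, with both OASIS arrays under both Venus arrays and the first OASIS array far under the second. Irf7 fell 3.85-fold by the brighter probe (log2 fold change -1.94, SE 0.57, adjusted p = 0.0724 in limma) and 4.07-fold by the dimmer (-2.03, SE 0.58, adjusted p = 0.0687). Without the first OASIS array the changes were -1.13 and -1.20, and without the second -2.76 and -2.86, past the threshold each time. Both calls were lost without the first Venus array (adjusted p = 0.14 and 0.136) and without the second (0.215 and 0.206).

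**Figure D2:**
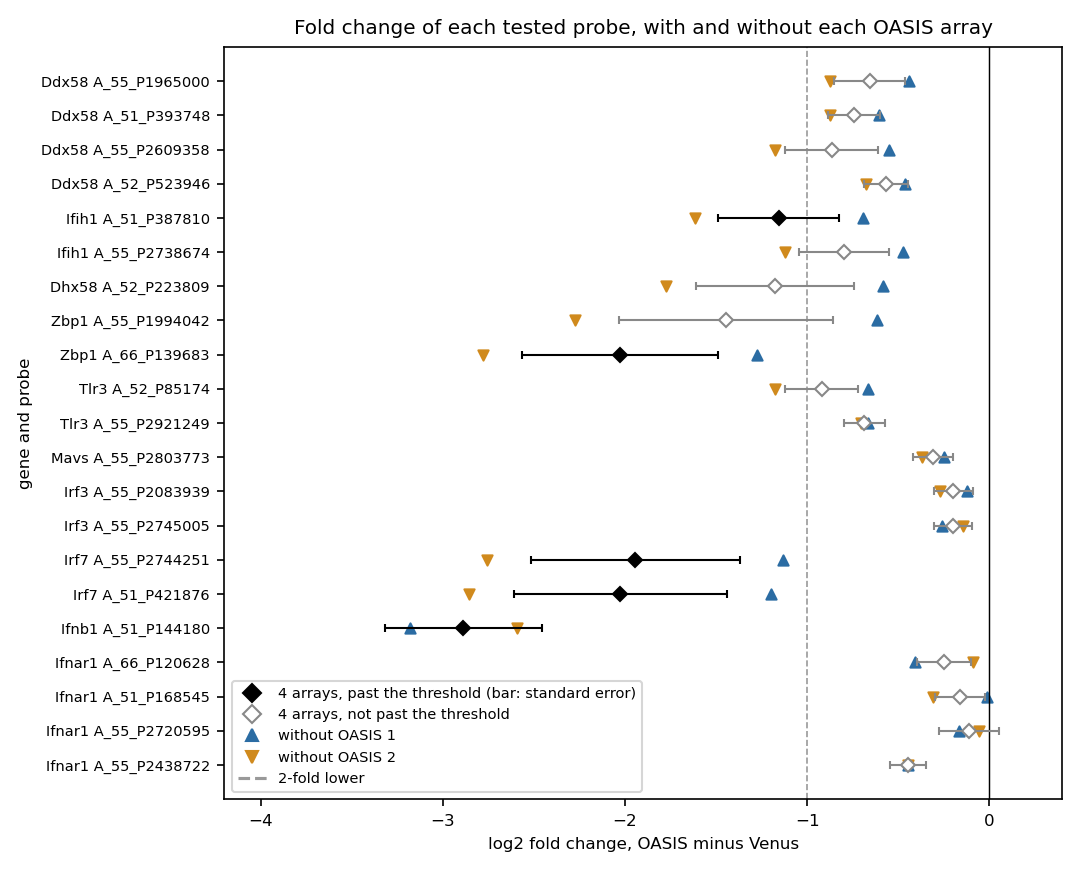
Log2 fold change of OASIS minus Venus (x axis) for each of the 21 tested probes (y axis), with the standard error from limma as bars, and the same without either OASIS array. Filled diamonds are the 5 probes past the threshold, and the dashed line marks a 2-fold fall. For Zbp1 and Irf7 the value without the second OASIS array lies far to the left of that without the first, and for Ifnb1 it lies to the right.

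Ifnb1 encodes interferon-β, the output of the sensing pathways, and lies on chromosome 4, band qC4. Its single probe, A_51_P144180, read -4.21 and -3.08 in Venus and -6.24 and -6.83 in OASIS. The probe was well above background on both Venus arrays and on neither OASIS array, so its OASIS level is only bounded. The bound set the mean of both Venus arrays against the lowest signal well above background on each OASIS array. The probe's own signal was used where it was higher. By this bound, Ifnb1 was at least 5.64-fold lower with OASIS (log2 2.50), from Venus arrays that lay 1.13 apart (log2). The measured means were -3.64 in Venus and -6.53 in OASIS, and the fit to them gave an adjusted p of 0.0165 in limma. Since the probe was tested through its Venus signal alone, this p rests on OASIS signals that were not well above background.

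In signal units, the Ifnb1 probe had processed signals of 50.1 and 117 in Venus and 12.7 and 8.53 in OASIS. Its local background was marked as not uniform on all 4 arrays. With normexp background correction, whose offset compresses dim signals, the fitted change was -0.92 (adjusted p = 0.0096 in limma), which no longer met the limit on fold. Leaving out each array in turn gave fitted changes from -3.45 to -2.32, which rest on the same OASIS signals.

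Ifnar1 encodes a chain of the receptor shared by all type I interferons, and lies on chromosome 16, band qC3.3. Its 4 probes changed by -0.45 to -0.11, and none was past the threshold. The largest change was of the dimmest probe, A_55_P2438722, at -0.45 (SE 0.10, adjusted p = 0.0373 in limma), 1.36-fold lower and with nearly equal readings within each group. The brightest, A_66_P120628, changed by -0.25 (adjusted p = 0.276). For A_51_P168545 (-0.16) and A_55_P2720595 (-0.11) the groups overlapped, and the latter turned to 0.09 without the first Venus array.

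**Figure D3:**
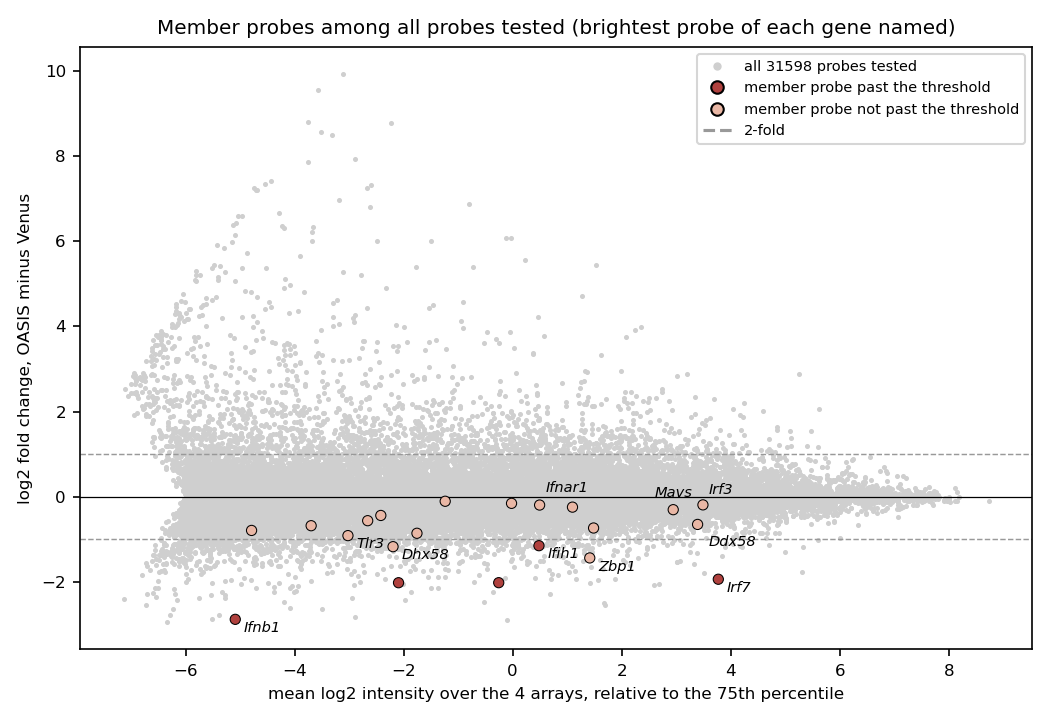
Mean log2 intensity over the 4 arrays (x axis) against the log2 fold change of OASIS minus Venus (y axis) for all 31598 probes tested in grey and the 21 member probes in colour, darker where past the threshold. The name of each gene stands at its brightest probe. All 21 coloured points lie below the line at 0, with Ifnb1 the lowest of them on the y axis.

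The OASIS arrays differed from each other in most of these genes. The second read above the first for 17 of the 21 tested probes (81%), against 43% of all probes. For 4 probes, those of Zbp1 and Irf7, the gap was over 1.5 on the log2 scale, from 1.51 to 1.66, while 0.396% of all probes had such a gap and the median gap over all probes was 0.17. For Mavs, Irf3 and Ifnar1 no gap exceeded 0.32. Ifnb1 ran the other way, with the second OASIS array 0.59 under the first, neither well above background. Of the 5 probes past the threshold, 4 had the second OASIS array above the first. The Venus arrays also had an order: the second read above the first for 15 of the 21, against 42.4% of all probes. All 4 arrays stood in the order OASIS 1, OASIS 2, Venus 1, Venus 2 from lowest for 13 of the 21, against 10.6% of all probes. The number of these probes past the threshold depended on which array was left out. Without the second OASIS array their median log2 fold change was -0.88, against -0.03 over all probes, and without the first -0.55 against -0.08. It was -0.82 against -0.05 without the first Venus array and -0.66 against -0.11 without the second. There the lone Venus array was assumed to vary like the OASIS arrays. All arrays were on 1 slide read in 1 scan. Spots with a background marked as not uniform made up 4.82% and 6.7% in Venus and 9.72% and 10.9% in OASIS, and their part in these results was not tested.

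**Figure D4:**
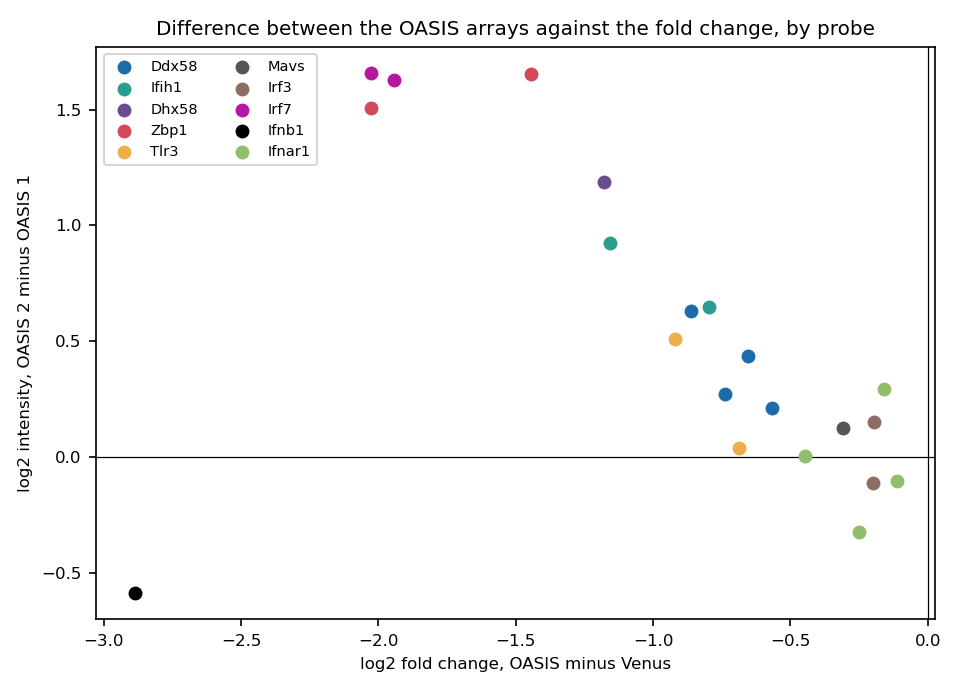
Log2 fold change of OASIS minus Venus (x axis) against the log2 intensity of the second OASIS array minus the first (y axis) for the 21 tested probes, coloured by gene. The probes of Zbp1 and Irf7 lie at the upper left, those of Mavs, Irf3 and Ifnar1 near the origin, and the Ifnb1 probe alone at the lower left. Both axes use the same OASIS values, so the points describe the arrays and carry no test.

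The rest of the pathway was read by 8 lists, each gene by its brightest probe. In these and the marker lists, 57 genes had more than 1 probe tested, and for 15 of them the probes differed in the call. A gene not counted below may therefore have passed by another probe. Of 89 genes tested, 10 (11.2%) were past the threshold and lower and 6 (6.74%) higher, against 1.85% and 6.21% of all genes. The 89 genes had a median change of -0.18 (log2). Of the 10 that fell, 5 were in the list of the interferon receptor and JAK-STAT signalling and 3 in that of double-stranded RNA effectors.

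Upstream of Ifnb1, the counts below stand against the same shares of all genes. Of 22 genes of RIG-I-like receptor signalling (ubiquitin ligases, TRAF adaptors and the kinases TBK1 and IKKε), 1 fell, the ubiquitin ligase Traf6 (-1.05, SE 0.12, adjusted p = 0.00913 in limma), and by 1 of its 4 tested probes. The list's median was -0.13. By a probe other than the brightest, Trim25 (-1.40) was past the threshold and lower. In the same way G3bp1 (1.33), Cyld (1.25, against -0.98 by its brightest probe), Azi2 (1.16) and Ikbkg (1.09) were past it and higher. These genes are named here after their values were seen. Of 7 tested genes of the endosomal receptors and their adaptors, 1 rose: Ticam1, the adaptor that TLR3 signals through (1.44, SE 0.12, adjusted p = 0.00645), and the median was 0.26. Of 9 genes of cytosolic DNA sensing, Ifi204, an interferon-inducible DNA sensor, fell (-1.50, SE 0.27, adjusted p = 0.0253), while Trex1, the exonuclease that clears cytosolic DNA, rose (1.28, SE 0.16, adjusted p = 0.0112). Of 9 genes for the proteins that assemble on the Ifnb1 promoter, Atf2 alone was past the threshold (1.15, SE 0.16, adjusted p = 0.0138), higher by 1 of its 3 tested probes, while the other 2 were lower at -0.68 (adjusted p = 0.0235) and -0.62 (adjusted p = 0.0455). None (0) of 4 tested partners of ZBP1 in cell death passed in limma. None (0) passed in the methods' t-test, which with adjustment called only 1 of the 89 pathway genes. At an adjusted p under 0.1 in limma, 1 partner was lower and 1 higher, and neither met the limit on fold.

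The other interferon genes were read next. Of 19 type I and type III interferon genes listed besides Ifnb1, 17 were on the array and 9 tested. None (0) passed in either direction in limma, against 1.85% of all genes lower and 6.21% higher. Their log2 fold changes ran from -0.36 to 0.60. None (0) passed in the methods' t-test, but with adjustment that test called only 1 of the 89 pathway genes. At an unadjusted p under 0.05 in limma there was 1, Ifnl3, which was higher (0.60, adjusted p = 0.0307) and is named here after its value was seen. The Ifna genes are close copies, so their probes may read each other's RNA and these values are uncertain. The tested Ifna probes were also dim, with Venus means from -5.37 to -3.58.

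Downstream of the receptor, the changes went both ways. Of 17 genes, 5 fell and 3 rose, against 1.85% and 6.21% of all genes, with a median of -0.39. Usp18, which removes ISG15 and restrains receptor signalling, read 2.70 and 3.23 in Venus and -0.66 and 1.48 in OASIS (-2.55, SE 0.73, adjusted p = 0.068 in limma). Isg15, the ubiquitin-like modifier, fell by 1.77 on the log2 scale (SE 0.56, adjusted p = 0.0837). Stat2 (-1.37) and Irf9 (-1.05), which encode subunits of the transcription factor that type I interferons activate, also fell and are named here after their values were seen.

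The genes that rose in that list were negative regulators of cytokine signalling. Ptpn6, the phosphatase SHP-1, read -5.07 and -5.20 in Venus and -1.74 and -2.19 in OASIS, a rise of 3.16 (SE 0.18, adjusted p = 0.00331 in limma) seen by 2 of 3 probes. Socs1 (1.75, SE 0.17) and Socs3 (1.14, SE 0.12), also named after their values were seen, encode suppressors of JAK kinases. The OASIS arrays lay within 0.45 of each other for these 3 genes, as they did for Ticam1, Trex1 and Atf2, the others that rose. Among the genes that fell in the lists, the gap was 0.19 for Traf6 and ran from 0.76 (Ifi204) to 2.14 (Usp18) for the rest, with the second OASIS array the higher.

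Of 12 double-stranded RNA effectors, 3 fell, against 1.85% of all genes, with a median of -0.81. All 3 were of the oligoadenylate synthetase family, whose products activate RNase L or resemble those that do: Oas3 (-2.44, SE 0.65, adjusted p = 0.0572 in limma), Oas1g (-1.88, SE 0.59, adjusted p = 0.0813) and Oasl2 (-1.66, SE 0.48, adjusted p = 0.0686). Oas1g has close paralogs, so its probe may also read their RNA. By a probe other than the brightest, Adar (-1.22, adjusted p = 0.00915 in limma) and Oas1b (-1.40, adjusted p = 0.0779) were past the threshold and lower. Both are named here after their values were seen. Across the lists, the count of genes that fell was 10 on 4 arrays and 3 without either Venus array, 5 without the first OASIS array and 17 without the second.

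**Figure D5:**
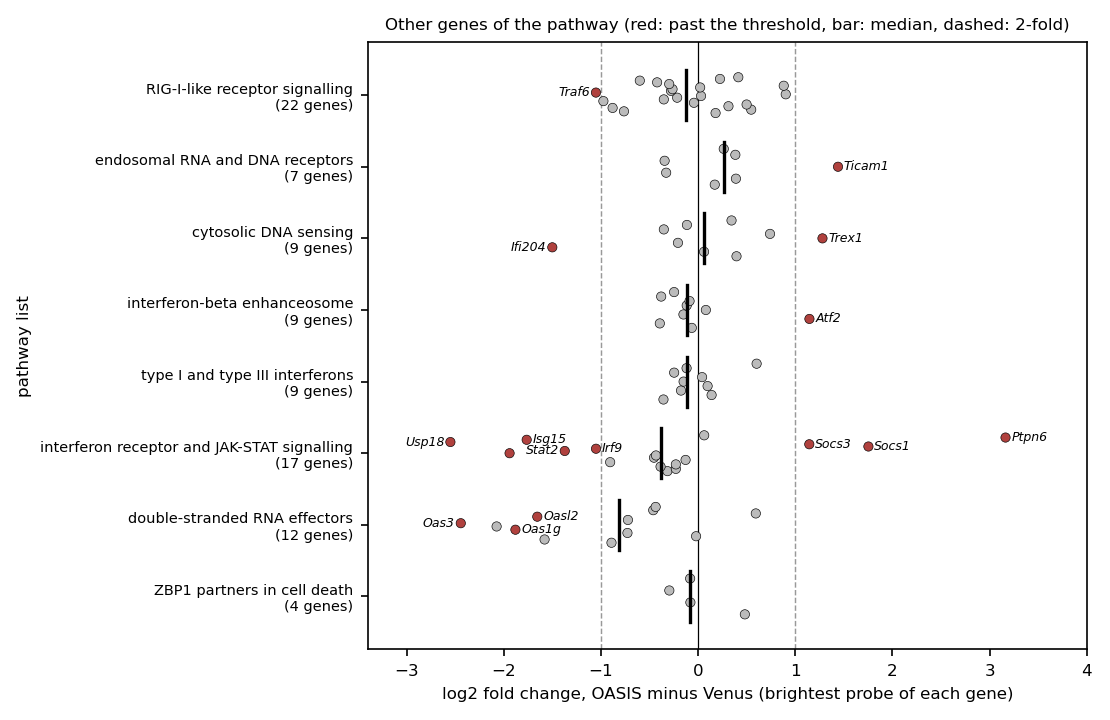
Log2 fold change of OASIS minus Venus (x axis) for each tested gene of the 8 pathway lists (y axis), by its brightest probe. Red points are past the threshold, with most of them named, bars are list medians and dashed lines mark 2-fold. Red points on the left are mostly in the lists of the interferon receptor and of double-stranded RNA effectors, whose medians are -0.39 and -0.81, and the 9 other interferon genes tested lie between -0.36 and 0.60.

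Likeness was measured as the distance between 4 array values, each less the mean of the gene's 2 Venus arrays, over 16318 genes. The genes nearest to Ddx58 were Hist1h3a, Gab1, H2-T10, H2-T9 and Shroom3, at distances of 0.042 to 0.068. The nearest to Ifnb1 were Ren1, Nefl, Olfm3, Rpl10l and Ccdc177, at 0.94 to 1.32. The latter ranking rests on weak signals, since neither OASIS array was well above background for Ifnb1, Nefl, Olfm3 or Ccdc177, and 1 was for Rpl10l. The choice of these 10 depended on the background correction, since with normexp only 1 of them was chosen again.

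Markers of other cell types were read in the same way, against 1.85% of all genes lower and 6.21% higher. Of 10 leukocyte markers, 7 were tested and 1 passed: Itgax, not well above background in Venus and at least 2.13-fold higher in OASIS (adjusted p = 0.0524 in limma). It was tested through its OASIS signal alone, so this p rests on Venus signals that were not well above background. The summed level of the leukocyte markers was 72.6 and 62.2 in Venus and 73.9 and 58.4 in OASIS, so the groups overlapped. Summed levels are multiples of the 75th percentile signal. The probe of Siglech alone made up 72.8% to 80.5% of that summed signal, which thus mostly followed 1 probe. Without it the sum was 18.1 and 16.9 in Venus and 14.4 and 13.9 in OASIS, lower on both OASIS arrays. The brightest marker left was Itgam, at 3.90 and 3.78 in Venus and 3.41 and 3.26 in OASIS (log2 level). Of the 7 tested markers, only 2 had a log2 fold change under 0, and the median was 0.065. Of the 10 markers, 6 were well above background on all 4 arrays, among them Ptprc, Itgam and Csf1r, whereas Adgre1 and Tyrobp were not on any array. Of 4 endothelial markers, 1 was well above background and the summed level ran from 0.0326 to 0.0443. Of 5 tubular markers, 3 were tested and Lrp2 rose (1.62, SE 0.23, adjusted p = 0.0148 in limma, by 2 of 5 probes). The summed tubular level was 1.46 and 1.86 in Venus and 3.48 and 4.02 in OASIS. It mostly followed Lrp2, the brightest, at -0.21 and 0.38 in Venus and 1.59 and 1.83 in OASIS (log2 level). Of the 3 tested, 2 had a log2 fold change under 0, down to -0.39. The part of these markers in the values of the sensor genes was not tested.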

How the data were processed

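Cy3-labelled cRNA from 4 RNA samples was hybridised by the authors to 1-colour Agilent SurePrint G3 Mouse arrays, and spots were read with Feature Extraction 12.1.0.3 per the file headers. The deposited intensity is the background-subtracted processed signal, with spot and background median intensities. A deposited table of scaled intensity equalled it times 1 factor per array and carried a detection score, used only in alternatives. The other deposited marks used (well above background, outlier, background not uniform) came from the scanner files. Symbols and bands are those of the deposited table, and no sequences are given.

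In R 4.3.3, control and outlier spots were left out, log2 processed signal was centred on the 75th percentile of each array and repeat spots were averaged by probe. Probes well above background on both arrays of a group were tested with limma 3.58.1 (lmFit, eBayes), using Benjamini-Hochberg adjustment over 31598 probes. The fold limits were those of the study's methods. The brightest tested probe represented a gene in lists. A probe not well above background on both arrays of a group was given a bound. The code was tested on simulated data.

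Every member was named with every probe, as were list genes past the threshold (the 4 largest changes where more than 4), markers past it, and the 5 genes nearest to Ddx58 and to Ifnb1. The members and lists were chosen with earlier results of these data known. Some genes of the lists are not reported here by name. An exact permutation test of 2 against 2 arrays cannot give a two-sided p under 0.333, so none was used. With 2 arrays a group, the number of arrays limits the precision.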

Additional observations from a re-analysis of the deposited data

How the results depend on the processing

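Over the settings tried, the median log2 fold change of the member probes stayed between -0.88 and -0.55, and the only tested member probe to change sign was A_55_P2720595 of Ifnar1 (0.086 without the first Venus array, adjusted p = 0.826 in limma, and -0.31 without the second). The counts moved more. The main fit had 5 member probes, 3 member genes and 16 pathway genes (10 lower, 6 higher) past the threshold. Fitting all probes without a filter on dim ones gave 1, 1 and 7 (1 lower), with 1.44% of all probes past the threshold and lower. An adjusted p under 0.05 gave 1, 1 and 9 (3 lower), with 2.14% of all probes past that limit and lower. The member left in both settings was Ifnb1, whose OASIS signals were not well above background. The methods' t-test with adjustment gave 0, 0 and 1 (0 lower, 1 higher), with 0.554% of all probes past the threshold and lower. Without adjustment this t-test gave a p under 0.05 for 6 member probes, 1 of them past the fold limit. An intensity trend in eBayes gave 7 member probes, against 2.59% of all probes past the threshold and lower, and 5 member genes. Leaving out each array in turn gave 1 to 10 member probes, 1 to 6 member genes, 9 to 25 pathway genes and 3 to 17 lower pathway genes. The cause was not tested. The replicate numbers were not stated to pair samples (correlation of same-numbered deviations 0.259). With the replicate number as a block, 7 member probes passed (the 5 with those of Dhx58 and of Zbp1 variant 2), and 5 member genes. In that fit 2.6% of all probes were past the threshold and lower. With normexp background correction the Ifnb1 bound was 0.92 (log2) against 2.50, there equal to the fitted change because the probe's own signal was used, and it kept 1 of the 10 most alike genes. The filter on the deposited detection score and the alternatives for the bound and the alike genes were chosen after seeing the data. Ifnb1 was not tested under that filter or under the one requiring all 4 arrays above background. Dim probes are limited by signal over background: A_51_P363218 of Dhx58 and the OASIS level of Ifnb1 were not measured above it.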
